A study of Mus musculus with 12 samples.

Results

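The mitochondrial ribosome and the mitochondrial protein import machinery were represented by 101 genes whose symbols begin with Mrpl, Mrps, Timm or Tomm followed by a digit, out of 19938 genes with a probe set of their own. They were 48 Mrpl genes, named for the large subunit of the mitochondrial ribosome, 29 Mrps genes, named for the small subunit, 14 Timm genes (inner membrane translocases and intermembrane space chaperones) and 10 Tomm genes (outer membrane translocase). They were picked by name, and this rule was set with earlier results of these data known. The genes were measured in natural killer (NK) cells, innate lymphocytes that kill infected and transformed cells, from mice with miR-142, a microRNA of blood cells (wild type, WT), or without it (knockout, KO). C57BL6 mice of 7 to 10 weeks, age and sex matched, gave NK cells sorted as CD3- NK1.1+ from the spleen or the bone marrow, and RNA amplified with a NuGEN Ovation Pico kit was hybridised to Affymetrix arrays. There were 12 arrays in 4 groups of 3: WT spleen, KO spleen, WT bone marrow and KO bone marrow. Each array is labelled as a biological replicate, but whether animals were pooled, how the KO allele was made and how the sexes fell are not stated, so the p-values cover the spread between these arrays.

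Mitochondria keep their own ribosome, which translates the few proteins encoded by mitochondrial DNA, all of them subunits of the oxidative phosphorylation complexes. Its protein subunits are themselves encoded in the nucleus, made in the cytosol and imported. Precursors bind receptors of the TOM complex (Tomm20, Tomm22, Tomm70a), cross the outer membrane through the Tomm40 channel, and are passed to the TIM23 complex for the matrix or, by small TIM chaperones, to the TIM22 complex for the inner membrane. Lymphocytes that grow and divide are known to enlarge this machinery.

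Values are log2 signals, so that a difference of 1 is a doubling of signal, and levels are compared between arrays for 1 gene, never between genes. A gene was called when its adjusted p was below 0.05 in a limma fit over all 11963 genes with a mean signal above 5.49, with Benjamini-Hochberg adjustment. All tests were two-sided, and each difference is given with its standard error. Of the 101 genes, 100 passed the filter on the mean. Timm8a2, a second mouse copy of the chaperone gene Timm8a, did not: its signals ran from 4.02 to 4.64 over the 12 arrays, and no test of it is given.

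The knocked-out locus followed its label in all 12 arrays. The probe set for Mir142 lay between 6.77 and 7.58 in WT spleen and between 4.05 and 4.60 in KO spleen, and between 7.10 and 8.25 in WT bone marrow against 4.26 to 4.70 in KO bone marrow. Its difference was -2.91 ± 0.29 in spleen (limma adjusted p = 7.34e-05) and -2.72 ± 0.32 in bone marrow (limma adjusted p = 0.000299). The locus gives both mature strands of the deleted microRNA, shown here from RefSeq (GRCm38.p6, chromosome 11, plus strand) with the seed, bases 2 to 8, in capitals because it defines what the KO cells lack.
mmu-miR-142a-5p: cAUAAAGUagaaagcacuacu
mmu-miR-142a-3p: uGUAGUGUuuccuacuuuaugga
Across all tested genes the arrays of a group correlated at 0.969 to 0.986. The summed signal of 8 NK cell markers, in log2, ran from 14.2 to 14.7 over the 12 arrays, and all 8 passed the filter on the mean. That of 5 B cell markers ran from 7.19 to 7.75, and sums of the other marker lists are given below for some of the comparisons. Judged by its array number, each array belongs to 1 of 2 number ranges, called runs here, with 7 and 5 arrays; run 1 holds all KO bone marrow arrays, and the run was a term of the fit.

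The mitochondrial genes as a whole stood highest in WT bone marrow and lowest in WT spleen. The mean deviation of the 100 tested genes from each gene's own mean was -0.16, -0.21 and -0.12 in WT spleen arrays 1, 2 and 3 and 0.22, 0.12 and 0.18 in the WT bone marrow arrays. It was -0.08, -0.12 and -0.04 in the KO spleen arrays and 0.09, 0.08 and 0.01 in the KO bone marrow arrays. The KO arrays of the 2 tissues thus lay between the WT arrays of the 2 tissues, apart from KO spleen array 2, which lay at the level of WT spleen array 3. In RNA from a bulk of sorted cells, a higher level can come from more RNA per cell or from a different make-up of the sort, and these cannot be told apart.

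**Figure D1:**
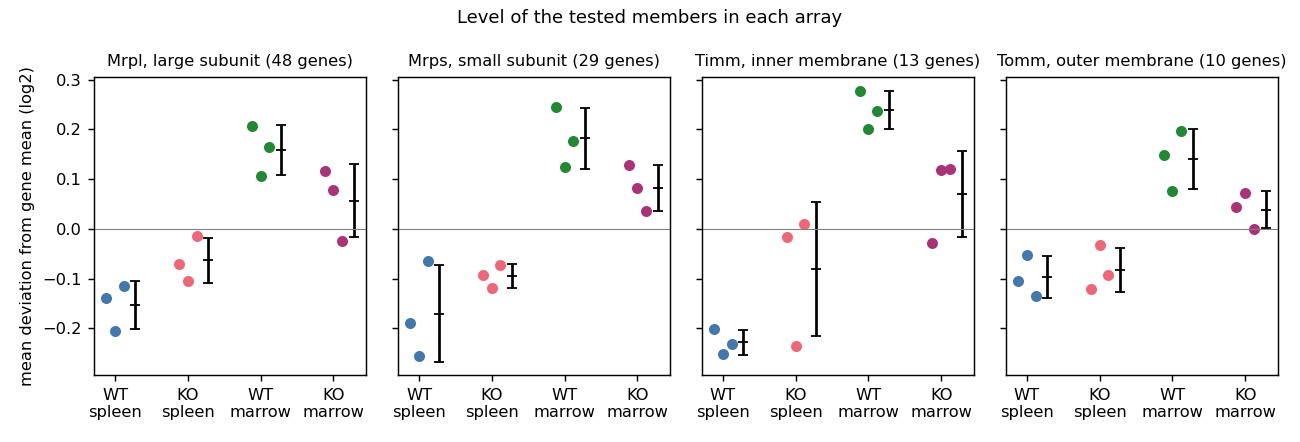
Mean deviation of the tested genes from each gene's own mean over the 12 arrays (y axis, log2) by group (x axis), for the 48 Mrpl, 29 Mrps, 13 Timm and 10 Tomm genes. Each point is 1 array, and the bar beside it is the group mean with its SD (n = 3). In each of the 4 classes all WT bone marrow arrays lie above all WT spleen arrays.

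The comparison of bone marrow with spleen in WT NK cells asked how the machinery differed between the 2 tissues with miR-142 present. In this comparison 21 of the 100 tested genes were called, and each of the 21 was higher in bone marrow. Among all 11963 genes 5.37% were called, 4.34% as higher and 1.04% as lower. The median difference of the 100 genes was 0.32 against -0.02 over all tested genes, 92 of the 100 were above 0 (47.1% of all genes were), and the arrays of the 2 tissues did not overlap, bone marrow higher, for 49 of them (16.4% of all genes). An unadjusted p under 0.05 was found for 54 of the 100, against 22.9% of all genes. By class, 10 of 48 Mrpl, 5 of 29 Mrps, 4 of 13 Timm and 2 of 10 Tomm genes were called, with medians of 0.31, 0.30, 0.41 and 0.22. The only member with all arrays lower in bone marrow was Mrpl24, at -0.22 ± 0.10, which was not called (limma adjusted p = 0.227).

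Among the outer membrane genes, Tomm20, the receptor that first binds proteins with a presequence, read 9.28, 9.25 and 9.25 in WT spleen arrays 1, 2 and 3 and 9.94, 9.86 and 9.90 in WT bone marrow. The WT bone marrow arrays thus lay well above the spleen arrays, and the spread within each group was small beside the gap. The difference was 0.64 ± 0.09 (limma adjusted p = 0.00385). Tomm5, a small subunit of the TOM complex, was also called, at 0.49 ± 0.12 (limma adjusted p = 0.0404), with signals of 8.24 to 8.33 in spleen and 8.53 to 8.88 in bone marrow. The channel Tomm40 (0.30 ± 0.11) and the receptor Tomm70a (0.38 ± 0.15) had all bone marrow arrays above all spleen arrays without passing the test, with limma adjusted p of 0.137 and 0.153. Tomm22, the central receptor (0.15 ± 0.13), and the small subunits Tomm6 (0.36 ± 0.13) and Tomm7 (0.11 ± 0.11) were not called, with limma adjusted p of 0.119 or above. Tomm6 too had all bone marrow arrays above all spleen arrays, while Tomm22 and Tomm7 overlapped.

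The inner membrane and intermembrane space genes held the largest difference of the whole machinery. Timm8a1, whose human counterpart TIMM8A is lost in deafness-dystonia syndrome, encodes a chaperone that works with Timm13 to carry membrane proteins across the intermembrane space. Its signal was 7.17, 6.94 and 6.95 in WT spleen and 8.44, 8.49 and 8.40 in WT bone marrow. Every bone marrow array was thus more than 1 log2 unit above every spleen array. The difference of 1.43 ± 0.12 (limma adjusted p = 0.000299) had the smallest p of all 11963 genes and ranked 89 by size. Its partner Timm13 read 7.85 to 7.96 in spleen and 8.26 to 8.58 in bone marrow, a difference of 0.55 ± 0.12 (limma adjusted p = 0.0244). Timm9, which forms the other chaperone ring with Timm10, read 6.74, 6.76 and 7.15 against 7.80, 7.39 and 7.62 (0.73 ± 0.16, limma adjusted p = 0.0227). Timm10 was the most variable gene of the 101, with signals from 6.60 to 8.20 and overlapping groups in each comparison (WT tissue difference 0.64 ± 0.37). Timm8b, a close relative of Timm8a1, had non-overlapping arrays but was not called (0.50 ± 0.14, limma adjusted p = 0.0635).

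Of the TIM23 complex, only the presequence receptor Timm50 was called. It read 6.57, 6.91 and 6.77 in WT spleen and 7.33, 7.55 and 7.36 in WT bone marrow, a gap wider than the spread of either group. The difference was 0.61 ± 0.12 (limma adjusted p = 0.0139). The channel subunit Timm23 (0.39 ± 0.13, adjusted p = 0.104) had no overlap between tissues either, and its partners Timm17a (0.35 ± 0.12) and Timm17b (0.33 ± 0.16) overlapped. Timm44, which tethers the import motor (0.27 ± 0.13), and Timm21, which links TIM23 to the respiratory chain (0.15 ± 0.31), were not called. In the TIM22 complex the channel Timm22 differed by 0.41 ± 0.18 (limma adjusted p = 0.212), while Timm29, a subunit of the animal complex, gave -0.00 ± 0.14, with a 95% interval from -0.30 to 0.29.

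Of the large ribosomal subunit, Mrpl54, Mrpl11, Mrpl23, Mrpl36 and Mrpl48 had the largest differences. Mrpl54 read 7.30, 7.64 and 7.32 in WT spleen and 8.45, 8.34 and 8.04 in WT bone marrow (0.93 ± 0.15, limma adjusted p = 0.00592). Mrpl11, the counterpart of bacterial L11 at the factor-binding site, read 8.39, 8.32 and 8.35 against 9.20, 9.18 and 9.39 (0.91 ± 0.15, limma adjusted p = 0.0071). Mrpl23 read 8.91, 8.49 and 8.81 against 9.68, 9.47 and 9.71 (0.91 ± 0.16, limma adjusted p = 0.0105), and its 2 probe sets gave 0.88 and 0.91. In each of these genes the lowest bone marrow array was above the highest spleen array. Mrpl36 (0.89 ± 0.19), the counterpart of bacterial L36, Mrpl48 (0.85 ± 0.20), Mrpl20 (0.74 ± 0.15) and Mrpl12 (0.70 ± 0.12), a stalk protein that also binds the mitochondrial RNA polymerase, were called too. Mrpl42 (0.69 ± 0.17), Mrpl19 (0.60 ± 0.14) and Mrpl16 (0.44 ± 0.10) completed the 10 large subunit genes. Mrpl3, a core protein of the large subunit, had non-overlapping arrays at 0.35 ± 0.12 and missed the threshold (limma adjusted p = 0.125).

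Among the Mrps genes those called were Mrps18b, Mrps30, Mrps26, Mrps34 and Mrps6. Mrps18b, 1 of 3 mammalian counterparts of bacterial S18, read 6.49, 6.76 and 6.59 in WT spleen and 7.66, 7.35 and 7.41 in WT bone marrow. Spleen and bone marrow arrays were again apart, and the difference was 0.92 ± 0.17 (limma adjusted p = 0.0101). The other counterparts had overlapping arrays, with 0.70 ± 0.27 for Mrps18a, which despite its name sits in the large subunit, and 0.51 ± 0.24 for Mrps18c. Mrps30 (0.57 ± 0.14), another large subunit protein by structure, Mrps26 (0.56 ± 0.13), Mrps34 (0.51 ± 0.10) and Mrps6 (0.49 ± 0.11) had limma adjusted p from 0.0195 to 0.0389. Mrps12, the decoding centre protein, differed by 0.12 ± 0.15, and Mrps7, whose bacterial counterpart S7 starts small subunit assembly, by 0.14 ± 0.11; neither was called.

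**Figure D2:**
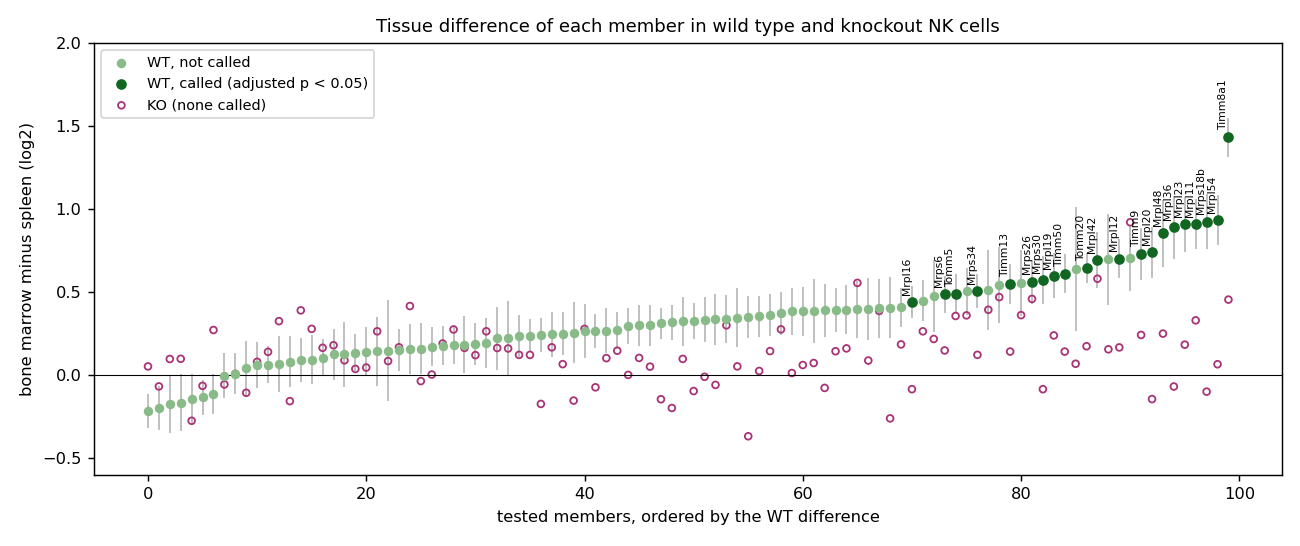
Bone marrow minus spleen difference (y axis, log2) of the 100 tested genes, ordered along the x axis by the WT difference. Green points are WT NK cells with bars of 1 standard error, dark green points are the 21 called genes, and open purple circles are the same genes in KO NK cells, where 0 were called. Most green points lie above 0, and the KO circle of each called gene lies below its WT point.

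The called genes were spread over 13 chromosomes. RefSeq promoters, windows of 300 bases around a gene's start with most of the window before it, were matched for 89 of the 101 genes and gave 97 windows. Promoters of nuclear genes for mitochondrial proteins are known for sites of NRF1, ETS factors such as GABP, YY1 and E-box factors such as MYC, so 4 motifs were searched on both strands: TGCGCA (NRF1), CCGGAAG (ETS), AAGATGG (YY1) and CACGTG (E-box). TGCGCA and CACGTG read alike on both strands, and a stretch in which CCGGAAG and AAGATGG overlap was counted under each. TGCGCA was in 27.8% of the 97 windows, against 13.3% of 12039 windows of tested genes and 7.76% of all 32851. CCGGAAG was in 35.1%, against 16.9% and 8.86%, and AAGATGG was in 16.5%, against 7.03% and 6.34%. CACGTG was in 12.4%, against 9.67% and 7.15%. At least 1 of the 4 was in 66% of the windows of the mitochondrial genes and in 38.1% of those of tested genes. Genes called between WT tissues had 21 windows from 18 genes, and the other tested members had 75 windows from 70 genes. Some genes have several windows, such as Mrpl48 among the called and Mrpl2 among the others, and each window was counted. Of the 21 windows, 33.3% held TGCGCA, 14.3% CCGGAAG, 14.3% AAGATGG and 23.8% CACGTG, against 26.7%, 40%, 17.3% and 9.33% of the 75. These are letter matches and do not show that a factor binds.

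The promoters of Timm8a1, Mrps18b, Mrpl11 and Mrpl23, the called genes with the largest WT tissue differences that have a window in the table, and of the receptor Tomm20 are shown, as examples of the genes that differed between the WT tissues. Motif matches are in capitals, and each sequence is read 5′ to 3′ on the strand of the gene in GRCm38.p6. Timm8a1 lies at chrX:134541621-134541920 on the minus strand and holds 2 CACGTG. Mrps18b lies at chr17:35916391-35916690 on the minus strand and holds 2 TGCGCA and 1 CCGGAAG, the latter read on the other strand. Mrpl11 at chr19:4962056-4962355 and Mrpl23 at chr7:142532782-142533081, both on the plus strand, hold 1 TGCGCA each. Tomm20 at chr8:126945872-126946171 on the minus strand holds 1 CACGTG and 1 TGCGCA.
Timm8a1: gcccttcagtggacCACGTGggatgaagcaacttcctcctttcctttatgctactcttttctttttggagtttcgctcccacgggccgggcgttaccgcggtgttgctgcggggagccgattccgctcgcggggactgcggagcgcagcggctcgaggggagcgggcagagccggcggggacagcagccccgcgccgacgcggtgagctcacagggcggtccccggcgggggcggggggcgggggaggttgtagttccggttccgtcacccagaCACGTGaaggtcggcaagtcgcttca
Mrps18b: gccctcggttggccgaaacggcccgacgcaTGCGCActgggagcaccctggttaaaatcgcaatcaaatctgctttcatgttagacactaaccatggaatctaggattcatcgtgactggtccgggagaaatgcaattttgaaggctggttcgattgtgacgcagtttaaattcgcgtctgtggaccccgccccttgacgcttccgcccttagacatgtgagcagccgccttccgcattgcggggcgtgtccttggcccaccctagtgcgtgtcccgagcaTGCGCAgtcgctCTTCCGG
Mrpl11: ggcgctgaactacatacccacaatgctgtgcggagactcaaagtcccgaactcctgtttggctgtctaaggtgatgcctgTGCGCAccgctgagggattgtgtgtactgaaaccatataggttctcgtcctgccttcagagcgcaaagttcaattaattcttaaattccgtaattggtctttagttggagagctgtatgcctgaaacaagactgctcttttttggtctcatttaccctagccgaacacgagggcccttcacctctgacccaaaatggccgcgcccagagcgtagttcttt
Mrpl23: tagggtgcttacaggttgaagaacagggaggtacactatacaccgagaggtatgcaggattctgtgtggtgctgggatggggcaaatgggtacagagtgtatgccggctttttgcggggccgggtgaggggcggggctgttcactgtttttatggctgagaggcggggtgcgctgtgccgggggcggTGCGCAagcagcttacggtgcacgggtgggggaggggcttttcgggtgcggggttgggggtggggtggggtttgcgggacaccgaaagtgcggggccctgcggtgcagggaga
Tomm20: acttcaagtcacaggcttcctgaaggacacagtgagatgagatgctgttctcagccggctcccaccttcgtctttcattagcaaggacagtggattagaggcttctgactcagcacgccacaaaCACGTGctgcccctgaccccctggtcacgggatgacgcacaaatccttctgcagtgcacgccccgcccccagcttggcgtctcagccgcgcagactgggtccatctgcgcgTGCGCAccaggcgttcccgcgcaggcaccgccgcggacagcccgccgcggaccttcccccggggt

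The same tissue comparison in KO NK cells gave smaller differences. In limma 0 of the 100 genes were called (lowest adjusted p 0.151), against 0.318% of all genes (0.092% higher and 0.226% lower), and 10 of the 100 had an unadjusted p under 0.05 (9.25% of all genes). The median difference was 0.12, 77 genes were above 0 (48.9% of all genes), and for 15 genes every bone marrow array was above every spleen array (7.62% of all genes), while for 3 genes every one was below (8.65%). Mrps28, a small subunit gene, had the largest KO tissue difference, 0.92 ± 0.22, with signals of 7.64 to 8.38 in KO spleen and 8.72 to 8.93 in KO bone marrow. It stood at 0.70 ± 0.20 in WT and was called in neither genotype (limma adjusted p = 0.151 and 0.0645). For the 21 genes called in WT, chosen here by their WT values, the median difference was 0.69 in WT and 0.17 in KO, 16 of 21 were above 0 in KO, and Timm8a1 gave 0.45 ± 0.13 (limma adjusted p = 0.262). Across the 100 genes the WT and KO tissue differences correlated at 0.273, against 0.349 over all tested genes. These differences compare separate arrays, but the same run term of the fit entered both, so they are not independent.

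Whether the KO effect differed between tissues, which is the same contrast as whether the tissue difference depended on genotype, was tested by the interaction. In limma 0 of the 100 genes were called, against 0.00836% of all genes, and 19 had an unadjusted p under 0.05 (9.13% of all genes). The KO effect was lower in bone marrow than in spleen for 78 of the 100 genes and higher for 22 (48% of all genes were higher), with a median of -0.18 against -0.01 over all genes, and for all 13 tested Timm genes, whose median was -0.39. The smallest p were those of Timm8a1 (-0.98 ± 0.19, limma adjusted p = 0.123), Mrps18b (-1.02 ± 0.26, limma adjusted p = 0.31), Mrpl20 (-0.88 ± 0.24), Mrpl54 (-0.87 ± 0.24) and Mrpl3 (-0.72 ± 0.20), the latter 3 at 0.314. The difference between genotypes therefore did not pass the test for any single gene.

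**Figure D3:**
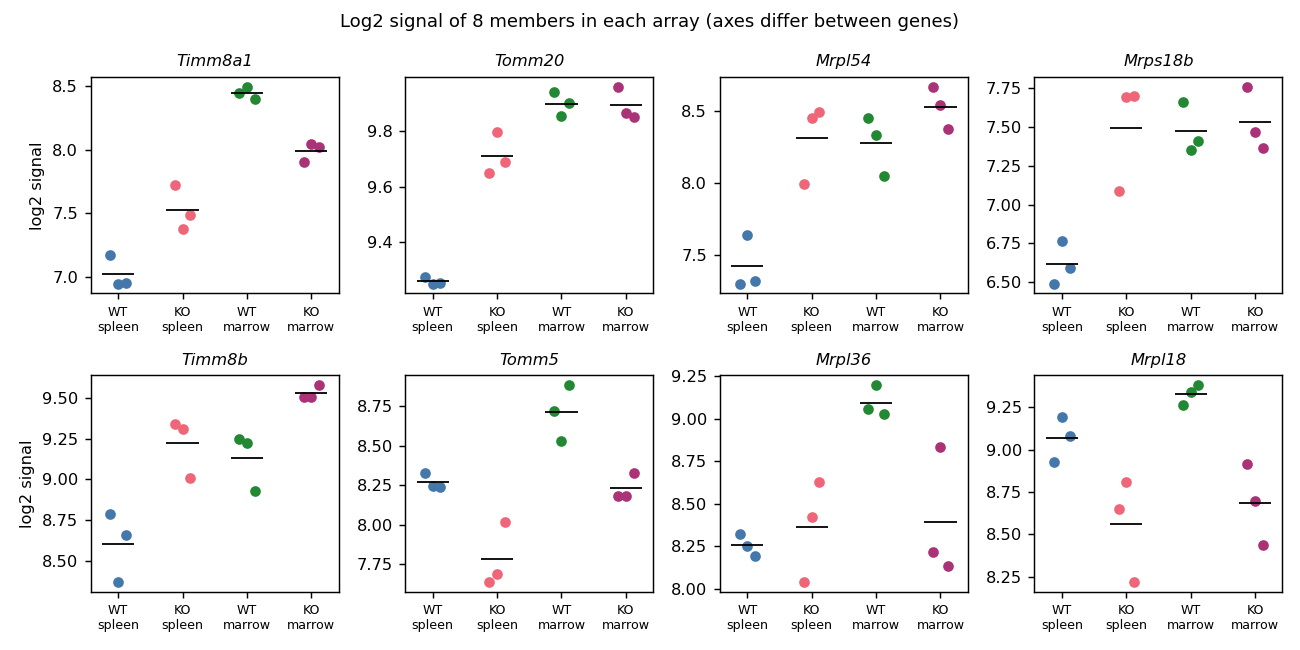
Log2 signal (y axis, scaled for each gene) of 8 genes in each array, by group (x axis); points are arrays in replicate order and lines are group means (n = 3). Timm8a1, Tomm20, Mrpl54 and Mrps18b are lowest in WT spleen, and Tomm5 and Mrpl18 are lower in KO than in WT in each tissue.

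In spleen, 9 of the 100 genes differed between KO and WT, 7 higher and 2 lower in KO, which at 9% is close to the 9.11% of all genes that were called (5.48% higher and 3.63% lower). The median difference was 0.07 and 62 genes were above 0 (47.2% of all genes), while 23 had an unadjusted p under 0.05 (22.1% of all genes). KO arrays were all higher for 16 genes and all lower for 5, against 14% of all genes each way. Some cell type markers differed in the same comparison. The summed log2 signal of 6 monocyte and macrophage markers was 11.2 to 11.4 in WT spleen and 10.1 to 10.3 in KO spleen. Of 3 tested, Ccr2 and Ms4a6c were lower, while Lyz2 overlapped (5.67 to 6.75 in WT, 5.53 to 7.04 in KO). Csf1r, Cd14 and Adgre1 did not pass the filter on the mean. The sum of 7 dendritic cell markers was 8.30 to 9.01 in WT and 9.58 to 10.1 in KO. All 3 tested were higher, the MHC class II genes Cd74, H2-Aa and H2-Ab1. Flt3, Xcr1, Clec9a and Siglech did not pass the filter, and their spleen arrays overlapped between genotypes. The sum of 5 erythroid markers was 9.55 to 9.74 in WT and 10.1 to 10.5 in KO. Of 4 tested, 2 were higher, Car1 and Car2, while Alas2 and Epor overlapped. Klf1 did not pass the filter. The sum of 7 T cell markers was 10.2 to 10.3 in WT and 9.67 to 9.93 in KO, with 2 of 5 tested lower. Cd3e was higher in each KO array without being called (6.95 to 7.32 in WT, 7.34 to 7.87 in KO). Of 9 granulocyte markers tested 1 was higher, S100a8. The part of these cell types in the KO spleen differences was not tested. Mrpl54 had the largest rise: its signal was 7.30, 7.64 and 7.32 in WT spleen and 8.0, 8.45 and 8.49 in KO spleen (0.97 ± 0.15, limma adjusted p = 0.0017). Mrps18b read 6.49, 6.76 and 6.59 in WT and 7.09, 7.69 and 7.70 in KO (0.94 ± 0.17, limma adjusted p = 0.00393). In both genes KO array 1 was the lowest of its group and still above each WT array. Tomm20 read 9.65, 9.80 and 9.69 in KO spleen, above the 9.25 to 9.28 of WT spleen (0.46 ± 0.09, limma adjusted p = 0.00827).

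Both tested Timm8 genes rose in KO spleen. Timm8a1 read 7.72, 7.38 and 7.48 against 6.94 to 7.17 in WT (0.51 ± 0.12, limma adjusted p = 0.0179), and Timm8b read 9.34, 9.31 and 9.01 against 8.79, 8.37 and 8.66 (0.59 ± 0.14, limma adjusted p = 0.0218). For each chaperone gene the KO arrays lay above the WT arrays without overlap. Timm13 came next without being called (0.42 ± 0.12, limma adjusted p = 0.0513). The other rises were those of the large subunit genes Mrpl52 (0.44 ± 0.12, limma adjusted p = 0.0349) and Mrpl3 (0.44 ± 0.12), whose adjusted p of 0.04998 was just under the threshold.

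The 2 genes that fell in KO spleen were Mrpl18 and Tomm5. Mrpl18, whose human protein also helps carry 5S ribosomal RNA into mitochondria, read 8.92, 9.19 and 9.08 in WT spleen and 8.65, 8.81 and 8.22 in KO spleen (-0.58 ± 0.15, limma adjusted p = 0.0337). Tomm5 read 8.33, 8.25 and 8.24 against 7.64, 7.69 and 8.02 (-0.44 ± 0.12, limma adjusted p = 0.0416). All KO arrays were below all WT arrays for both genes. The remaining TOM core did not pass: Tomm40 was at 0.26 ± 0.11, Tomm70a at 0.20 ± 0.15, Tomm22 at -0.11 ± 0.13, Tomm6 at 0.01 ± 0.13 and Tomm7 at -0.13 ± 0.11.

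The spleen comparison and the WT tissue comparison share the 3 WT spleen arrays, so their values are given side by side and not as independent. Of the 21 genes called between WT tissues, 5 were also called in KO spleen. Tomm20, Mrpl54, Mrps18b and Timm8a1 had 0.46, 0.97, 0.94 and 0.51 in KO spleen against WT spleen and 0.64, 0.93, 0.92 and 1.43 in WT bone marrow against WT spleen. Tomm5, the fifth, went down in the first comparison (-0.44) and up in the second (0.49).

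In bone marrow, 3 of the 100 genes were called, all lower in KO, against 8.65% of all genes (4.73% lower and 3.92% higher). An unadjusted p under 0.05 was found for 22 genes (23.8% of all genes). In the same comparison 4 of 25 cell cycle genes, 4 of 9 granulocyte markers and 4 of 5 T cell markers were lower in KO. The summed log2 signal was 12.2 to 12.5 in WT and 10.7 to 11.6 in KO for granulocyte markers, and 11.1 to 11.2 and 9.58 to 9.88 for T cell markers. That of dendritic cell markers was 8.52 to 8.93 in WT and 9.33 to 9.52 in KO, with 0 of 3 called in limma (2 at an unadjusted p under 0.05), and that of monocyte and macrophage markers 11.5 to 11.8 and 11.1 to 11.3, with 0 of 3 called in limma (1 at an unadjusted p under 0.05). For erythroid markers it was 9.9 to 10.1 in WT and 10.2 to 10.5 in KO, with 1 of 4 called as higher and 1 as lower. The part of these groups in the KO bone marrow differences was not tested. The median was -0.12 against -0.01 over all genes, 25 genes were above 0 (48.1% of all genes), and the arrays did not overlap, KO lower, for 21 genes (17.8% of all genes) and, KO higher, for 7 genes (16.4%). Mrpl36 read 9.06, 9.20 and 9.03 in WT bone marrow and 8.22, 8.83 and 8.13 in KO bone marrow (-0.80 ± 0.21, limma adjusted p = 0.0362). KO array 2 was the closest to WT and still below it. Tomm5 read 8.72, 8.53 and 8.88 in WT and 8.18, 8.18 and 8.33 in KO (-0.57 ± 0.13, limma adjusted p = 0.0222). Timm8a1 read 8.44, 8.49 and 8.40 in WT and 7.90, 8.05 and 8.02 in KO (-0.46 ± 0.13, limma adjusted p = 0.0485), again without overlap.

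The next smallest p in bone marrow were those of Mrpl11 (-0.59 ± 0.17, limma adjusted p = 0.0518), with all KO arrays lower, and of Mrpl57 (-0.34 ± 0.10, limma adjusted p = 0.0689). In the TIM23 complex the KO differences in bone marrow were -0.23 ± 0.14 for Timm23, -0.43 ± 0.17 for Timm17b, -0.12 ± 0.14 for Timm17a, -0.20 ± 0.13 for Timm50, -0.22 ± 0.15 for Timm44 and -0.34 ± 0.34 for Timm21, with limma adjusted p of 0.152 or above. Tomm20, which rose in KO spleen, stood at -0.02 ± 0.10 in bone marrow, with a 95% interval from -0.24 to 0.21. Mrpl54 (0.10 ± 0.17) and Mrps18b (-0.08 ± 0.18) likewise had overlapping arrays there.

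**Figure D4:**
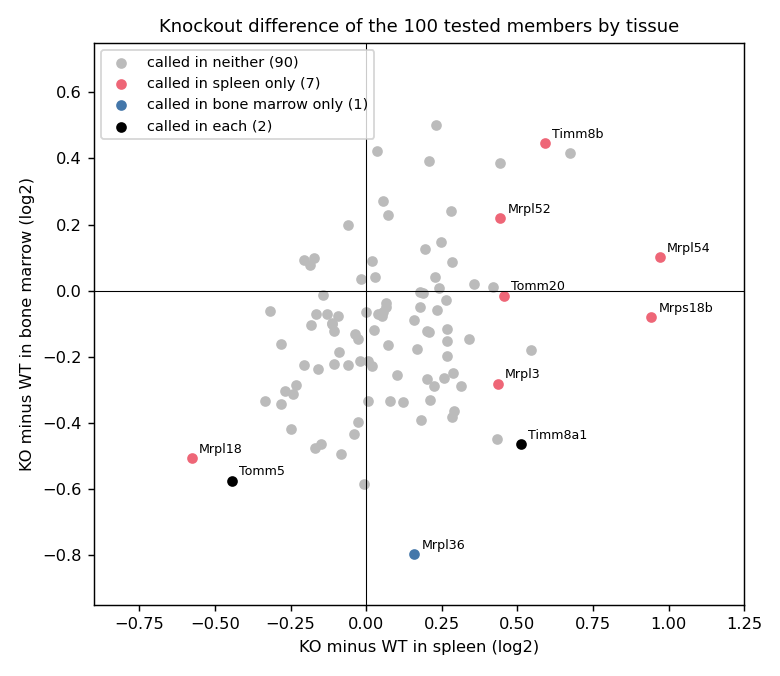
KO minus WT difference in spleen (x axis, log2) against that in bone marrow (y axis, log2) for the 100 tested genes; colours show where a gene was called. The lower right quadrant, higher in KO spleen and lower in KO bone marrow, holds 42 genes, among them Timm8a1. The share of all genes in that quadrant is not given. Tomm5 is low on both axes.

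Only Tomm5 and Timm8a1 were called in both tissues. Tomm5 was lower in KO each time, and Timm8a1 was higher in KO spleen and lower in KO bone marrow, so that its 4 groups ran in the order WT spleen, KO spleen, KO bone marrow, WT bone marrow with no overlap between neighbours. Averaged over both tissues, 11 genes were called, 7 higher and 4 lower in KO, against 19.1% of all genes (8.81% higher and 10.3% lower), and 27 had an unadjusted p under 0.05 (31.3% of all genes); 43 were above 0, against 48.4%. Tomm5 had the smallest adjusted p of the machinery (-0.51 ± 0.08, limma adjusted p = 0.00121). Mrpl18 (-0.54 ± 0.10), Tomm34, a cytosolic co-chaperone of import (-0.33 ± 0.08), and Mrpl15 (-0.33 ± 0.08) were lower as well, with limma adjusted p of 0.00337, 0.0161 and 0.0142. The genes higher in KO were Mrpl38 (0.54 ± 0.15), Mrpl54 (0.54 ± 0.10), Timm8b (0.52 ± 0.10), Mrps18b (0.43 ± 0.11), Mrpl41 (0.41 ± 0.13), Mrpl52 (0.33 ± 0.08) and Tomm20 (0.22 ± 0.06), with limma adjusted p from 0.00301 to 0.0462.

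Of these 11 genes, 4 had no overlap between genotypes in either tissue: Tomm5, Mrpl18, Timm8b and Mrpl52. The share of all called genes with this pattern is not given, and these 11 genes were called from the same arrays. Timm8b read 9.51, 9.50 and 9.58 in KO bone marrow against 9.25, 9.23 and 8.93 in WT bone marrow (0.45 ± 0.16, limma adjusted p = 0.106). Mrpl41 has a second probe set, and the 2 gave 0.18 and 0.41 over both tissues and opposite signs (-0.03 and 0.39) in bone marrow, where the gene was not called. At the other end, Tomm20l, a paralog of Tomm20, varied least of the 101 genes: its signals ran from 5.56 to 5.90 and it was called in none of the 6 comparisons.

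Genes that work beside the machinery under other names were read from lists. Their counts are to be read against the 4.34% of all genes that were called as higher between WT tissues and the 5.37% called in all. The list of mitochondrial translation factors had 1 of 14 genes higher (Tufm, the elongation factor, 0.51 ± 0.12), and that of ribosome subunits under other names 1 of 4 (Chchd1, 0.51 ± 0.11). The lists of ribosome assembly and of mitochondrial DNA maintenance and transcription had 1 of 21 (Noa1, an assembly GTPase, 1.07 ± 0.16) and 1 of 11 (Polg2, the accessory subunit of the mitochondrial DNA polymerase, 0.48 ± 0.13). Of the 21 aminoacyl-tRNA synthetase genes 0 were called in limma (9 at an unadjusted p under 0.05). Other import genes had 2 of 28 higher: Hspa9, the motor chaperone that pulls precursors into the matrix, and Hspe1, a matrix co-chaperonin (0.49 ± 0.10). Hspa9 read 8.19, 8.37 and 8.16 in WT spleen and 9.06, 8.91 and 8.93 in WT bone marrow (0.77 ± 0.11, limma adjusted p = 0.00354). No gene of these lists was called as lower in WT bone marrow, and medians ran from 0.06 to 0.37. Single genes did fall without a call, such as the synthetase gene Hars2. It read 7.00, 7.32 and 7.08 in WT spleen and 6.45, 6.85 and 6.60 in WT bone marrow.

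In KO spleen the calls in these lists were 1 of 14 translation factors, 2 of 21 synthetase genes, 1 of 11 genes of mitochondrial DNA and 2 of 28 import genes, against 9.11% of all genes; ribosome subunits under other names (1 of 4) and assembly genes (2 of 21) had unadjusted p under 0.05 in limma but 0 calls. In KO bone marrow they were 1 of 4 ribosome subunits under other names, 1 of 21 synthetase genes, 2 of 11 genes of mitochondrial DNA and 1 of 28 import genes, against 8.65% of all genes; translation factors (3 of 14) and assembly genes (3 of 21) had unadjusted p under 0.05 in limma but 0 calls. Hspa9 read 8.68, 8.75 and 8.88 in KO spleen and was higher than in WT spleen (0.58 ± 0.11, limma adjusted p = 0.00554). Dnajc15, a regulator of the import motor, was lower in KO in each tissue: it read 10.56, 10.53 and 10.66 in WT spleen, 9.92, 10.07 and 9.92 in KO spleen, 10.81, 10.63 and 10.76 in WT bone marrow and 10.08, 10.04 and 10.20 in KO bone marrow. The differences were -0.62 ± 0.10 and -0.61 ± 0.11, with limma adjusted p of 0.00261 and 0.00627. Polg, the catalytic subunit of the mitochondrial DNA polymerase, was lower in each tissue too (-0.52 ± 0.10 and -0.48 ± 0.11), and Polg2 in bone marrow (-0.84 ± 0.14). Dap3, a small subunit protein, was lower in KO bone marrow (-0.66 ± 0.15). Gatc, part of the enzyme that makes glutaminyl-tRNA in mitochondria, was higher in each tissue (0.44 ± 0.12 and 0.79 ± 0.14), while Wars2, the tryptophanyl-tRNA synthetase, was lower in spleen (-0.75 ± 0.14). Slirp, an RNA-binding protein for mitochondrial messengers, was higher in KO spleen (0.55 ± 0.15). Over both tissues Mrrf, the ribosome recycling factor (0.51 ± 0.15), and Oxa1l, the membrane insertase (0.40 ± 0.10), were higher, and Agk, a TIM22 subunit (-0.52 ± 0.16), was lower.

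Of 10 regulators of nuclear genes for mitochondrial proteins, Myc and Pprc1 were called as higher in WT bone marrow than in WT spleen. Myc, a transcription factor of growth, read 9.27, 9.37 and 9.76 in WT spleen, 10.75, 10.80 and 10.62 in KO spleen, 10.76, 10.70 and 10.78 in WT bone marrow and 10.78, 10.97 and 11.03 in KO bone marrow. The 3 WT spleen arrays were thus about 1 log2 unit below the 9 others. Its difference was 1.22 ± 0.12 between WT tissues (limma adjusted p = 0.000553) and 1.20 ± 0.12 in KO spleen (limma adjusted p = 7.3e-05). Pprc1, a coactivator of the PGC-1 family, read 6.48, 6.85 and 6.64 in WT spleen and 7.66, 7.44 and 7.29 in WT bone marrow (0.85 ± 0.16). It was lower in KO bone marrow (-0.72 ± 0.18, limma adjusted p = 0.0306). Ppargc1a, which encodes PGC-1α, was higher in KO bone marrow (1.03 ± 0.22) at low signals that overlapped between the groups.

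Levels of other gene groups moved with the tissue difference. The log2 summed signal of 25 cell cycle genes was 12.2 to 12.4 in WT spleen, 12.2 to 12.5 in KO spleen, 13.0 to 13.7 in WT bone marrow and 12.2 to 13.6 in KO bone marrow, and 16 of the 25 were called as higher between WT tissues. That of 14 granulocyte markers, cells the sort should leave out, was 9.35 to 10.25 in WT spleen, 9.99 to 11.1 in KO spleen, 12.2 to 12.5 in WT bone marrow and 10.7 to 11.6 in KO bone marrow. Of the 9 granulocyte markers tested, 7 were higher in WT bone marrow, among them S100a8 (3.72 ± 0.37) and Ngp (2.83 ± 0.53), while Ly6g was at 3.80 to 6.52 and Ltf at 4.52 to 6.20 over the 12 arrays. Markers of T cells, also gated out through CD3, summed to 11.1 to 11.2 in WT bone marrow and 9.58 to 10.3 elsewhere. Of 5 tested, 3 were called (Cd3d, Cd3e and Cd3g), while Cd28 and Cd5 were not and overlapped between WT tissues. Cd4, at 4.73 to 5.26 over the 12 arrays, and Cd8b1, at 4.62 to 5.22, did not pass the filter on the mean. Monocyte and macrophage markers summed to 11.2 to 11.4 in WT spleen and 11.5 to 11.8 in WT bone marrow, with 1 of 3 tested called as higher and 1 as lower. Erythroid markers summed to 9.55 to 9.74 and 9.9 to 10.1, with 1 of 4 tested called as higher. The 8 NK markers summed to 14.5 to 14.6 in WT spleen and 14.2 to 14.4 in WT bone marrow, and 2 were lower in WT bone marrow, Gzma and Prf1.

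**Figure D5:**
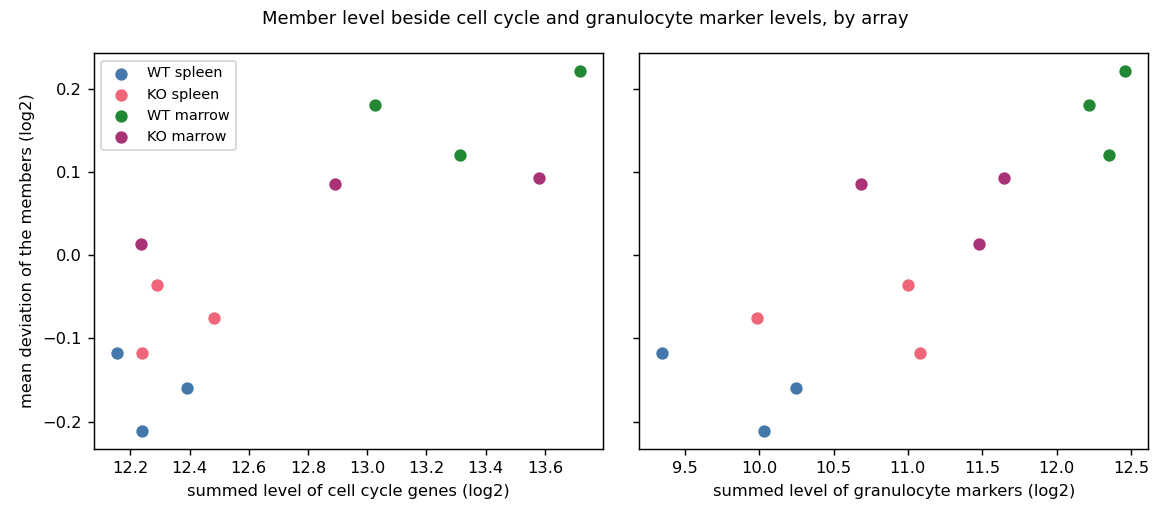
Mean deviation of the 100 tested genes (y axis, log2) against the log2 summed signal of 25 cell cycle genes (left) and 14 granulocyte markers (right), with 1 point per array coloured by group. WT bone marrow arrays are high on each axis. KO bone marrow array 3 has a cell cycle level of 12.2, like the spleen arrays, and a member level of 0.01. KO bone marrow array 1 has a cell cycle level of 13.6, and its member level of 0.09 is below that of each WT bone marrow array.

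With the granulocyte level as a covariate, 0 of the 100 genes were called between WT tissues in limma (12 at an unadjusted p under 0.05), as were 0 of all 11963 genes, and the median of the 100 was 0.43. With the cell cycle level as a covariate 1 was called, Timm8a1, among 27 of all genes, and the median was 0.24. The granulocyte covariate also left 0 calls in spleen (15 at an unadjusted p under 0.05) and 0 in bone marrow (15 likewise) for the KO comparisons, while the calls over all genes went from 1090 to 335 and from 1035 to 158. The medians of the 100 genes under it were 0.16 and -0.14. These covariates are levels measured on the same arrays that themselves differ between the groups, and their part in the differences was otherwise not tested.

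The number of called genes, among the 100 and among all genes, changed with the arrays used. Leaving out WT bone marrow array 1 left 1 call between WT tissues, Timm8a1, at a median of 0.30, and leaving out WT bone marrow array 2 left 13, while over all genes 643 calls became 82 and 395. Without WT spleen array 1, 2 or 3 the count was 10, 10 and 8, and over all genes 323, 294 and 147. For KO spleen it fell from 9 to 5, 3 and 4 without WT spleen array 1, 2 or 3, to 5 without KO spleen array 3 and to 5 without KO bone marrow array 2, with 788, 752, 546, 647 and 962 calls over all genes in place of 1090. For KO bone marrow it fell from 3 to 0 without WT bone marrow array 1, and to 1 without WT bone marrow array 2 or 3, KO bone marrow array 3, or any 1 WT spleen array. Over all genes 1035 calls became 371 without WT bone marrow array 1 and 700 to 887 in the others. Within run 1 the median WT tissue difference was 0.37 with 92 genes above 0, within run 2 it was 0.24 with 80 above 0. The median KO difference in spleen was 0.11 in run 1 and 0.03 in run 2, and that in bone marrow was -0.15 in run 1, the only run with KO bone marrow arrays.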

How the data were processed

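The authors deposited log2 signals per probe set, made with Affymetrix Expression Console and RMA per the submitters' processing notes; RMA subtracts background, equalises the quantiles of the arrays and combines the probes of a set. Tool versions, probe annotation and build: not given in the sources used here. Of 35556 probe sets, 21789 carried 1 gene symbol, and the probe set with the highest mean was kept for each of 19938 symbols. All 101 genes were found by gene ID in the RefSeq table of GRCm38.p6. Of them 12 have more than 1 probe set; 2 further probe sets with several symbols were left out.

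Tested genes had a mean over the 40th percentile of all gene means (5.49), and the test was made with limma 3.58.1 (R 4.3.3) on the log2 scale: 4 group means and the run in 1 fit of 12 arrays, with 7 residual and 4.74 prior degrees of freedom, and Benjamini-Hochberg adjustment over 11963 genes in each of 6 comparisons. The run, which means only that array numbers fall into 2 ranges, had 0 genes called in limma (546 at an unadjusted p under 0.05). On simulated data with 200 changed genes the fit recovered 88% of changes of 1 log2 unit in spleen and 80.2% in bone marrow, and 35.4% and 24% of changes of 0.5. The number of arrays limits the precision.

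Named genes were all called genes, or the 5 smallest p where fewer than 5 were called, subunits of the core complexes, members under the filter, members with disagreeing probe sets, the most and least variable member, and up to 4 called genes of each list. The members and lists were chosen with earlier results of these data known. Alternatives were other filters, scalings, probe set rules and fits, the replicate number as a block and each array left out; the covariates of granulocyte and cell cycle levels were added after seeing the data. Replicate numbers were not used as pairs because the labels give no shared animal or day for a number. The values did show some likeness by number. Of 18 same-numbered pairs, 6 correlated above 0.1 in their deviations from group means, while the highest differently numbered pair was at 0.066. A fit with the number as a block is among the alternatives.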

Additional observations from a re-analysis of the deposited data

Results flagged for a closer look

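In Timm8a1, Mrpl3, Mrpl4 and Mrpl24 all arrays of the KO group lay on one side of the WT arrays in spleen and on the other side in bone marrow. The share of all genes with this pattern is not given, so it is not known whether these genes exceed it. Taken singly, KO arrays were all higher in spleen for 14% of all genes and all lower for 14%. In bone marrow these shares were 16.4% and 17.8%. The KO effect in bone marrow minus that in spleen was -0.98 for Timm8a1 (limma adjusted p = 0.123), -0.72 for Mrpl3 (0.314), -0.52 for Mrpl4 (0.397) and 0.27 for Mrpl24 (0.639). The difference was tested as an interaction and passed for none of the 4. Mrpl4, a large subunit gene, read 8.02, 7.87 and 7.93 in WT spleen, 8.17, 8.21 and 8.08 in KO spleen, 8.40, 8.11 and 8.23 in WT bone marrow and 7.94, 7.94 and 8.08 in KO bone marrow. Mrpl24 went the other way, with 9.26 to 9.46, 9.06 to 9.21, 9.02 to 9.16 and 9.18 to 9.33 in the same order of groups.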

How the results depend on the processing

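No named gene changed direction in a called comparison under any of the alternatives run, and the medians over the 100 genes kept their sign: 0.04 to 0.16 for KO spleen, -0.19 to -0.05 for KO bone marrow, -0.06 to -0.00 over both tissues, -0.30 to -0.09 for the interaction, 0.23 to 0.43 for the WT tissues and 0.08 to 0.15 for the KO tissues. Counts of called genes moved more. For KO bone marrow (3 in the fit reported) the count was 7 without the run, 0 after quantile normalization applied again (13 at an unadjusted p under 0.05 in limma), 8 after centring each array on its median, 5 with array weights, 0 with the granulocyte covariate and 1 with the cell cycle covariate, while 1035 calls over all genes became 1590, 923, 1200, 1246, 158 and 663. For the WT tissues (21) it was 13 after quantile normalization, 0 with the granulocyte covariate and 1 with the cell cycle covariate (643 over all genes became 553, 0 and 27), and for KO spleen (9) it was 0 with the granulocyte covariate (1090 became 335). The cause was not tested. Leaving out 1 array at a time gave 3 to 8 calls for KO spleen, 0 to 4 for KO bone marrow, 8 to 13 over both tissues, 1 to 22 for the WT tissues, and 0 for the interaction and the KO tissues. Scaling also moved the balance of all called genes: 469 higher and 566 lower in KO bone marrow became 529 and 394 after quantile normalization and 370 and 830 after centring, 1054 and 1236 over both tissues became 1158 and 1110, and 923 and 1455, by the same steps, and 519 and 124 between WT tissues became 360 and 193, and 780 and 80. With the replicate number as a block the counts were 8, 2, 12, 0, 21 and 0 for KO spleen, KO bone marrow, both tissues, the interaction, WT tissues and KO tissues; each of the 12 arrays was closest to arrays of its own number, a hint from the data and not from the design. Timm8a1 kept its WT tissue call in 23 of 24 alternatives, Mrpl3 its KO spleen call in 6 of 24 and Mrpl36 its KO bone marrow call in 10 of 24. The fit on only the groups compared could not be run apart from the one without the run for both tissues and the interaction.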
